A study of Homo sapiens with 5 samples.

Results

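The transcripts described here are those that Cufflinks, a program that builds transcripts from aligned reads, assembled in WI-38 cells without linking them to any annotated Ensembl gene. They were chosen by measured values in each of the 5 libraries: a transcript had no Ensembl identifier, shared its gene with no Ensembl transcript, was at least 200 nt long, had an FPKM of at least 1 and carried the status OK. FPKM is the number of fragments per kilobase of transcript, scaled to the mapped fragments of the library. In all, 43149 transcripts met the rule, of 876777 transcript rows in the 5 libraries. They were joined across libraries wherever their spans overlapped by at least 1 base, which gave 23956 loci. Because length and FPKM chose the members, the lengths and levels below are descriptions and carry no test.

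WI-38 is a line of human diploid lung fibroblasts that divides a limited number of times in culture before it senesces. Total RNA was sequenced from cells at population doubling level (PDL) 15, from cells at PDL 55, and from PDL 15 cells transfected with a control siRNA, with an siRNA against AUF1 (gene HNRNPD) or with an siRNA against HuR (gene ELAVL1). AUF1 and HuR are RNA-binding proteins that attach to AU-rich and U-rich stretches of RNA, and each has been linked to mRNA decay or stability. The amplification kit copied RNA with and without a poly(A) tail and depleted ribosomal RNA, and no strand was recorded for the transcripts. Each group had 1 library, so no difference between groups has a replicate check, and no p-value is given.

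Transcripts outside annotated genes come from several known sources. Primary microRNA transcripts are long nuclear RNAs that are cut soon after they are made, and many are annotated only as the short hairpin. RNA polymerase II commonly runs past the cleavage site of a gene and leaves RNA downstream, and introns that are still being removed leave unspliced RNA inside genes. Long noncoding RNAs, enhancer transcripts and repeated ribosomal sequences make up much of the rest.

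Among loci with members in all 5 libraries, 16 lay within 10 kb of an annotated microRNA hairpin. The mature microRNAs of several of these hairpins are shown here because they identify the genes whose flanks were assembled, and they are RefSeq sequences (build GRCh38.p14) with the seed, bases 2 to 8, in capitals. All of the hairpins nearest to these 16 loci had a RefSeq entry.
miR-34a-5p: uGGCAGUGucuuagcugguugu
miR-221-3p: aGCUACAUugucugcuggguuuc
miR-222-3p: aGCUACAUcuggcuacugggu
miR-21-5p: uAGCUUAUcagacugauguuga
miR-22-3p: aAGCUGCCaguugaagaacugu
let-7a-5p: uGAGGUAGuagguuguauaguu
let-7f-5p: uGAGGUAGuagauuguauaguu
let-7d-5p: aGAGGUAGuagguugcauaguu
miR-424-5p: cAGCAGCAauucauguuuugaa
miR-374b-5p: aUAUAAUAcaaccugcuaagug
miR-136-5p: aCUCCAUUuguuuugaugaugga
miR-379-5p: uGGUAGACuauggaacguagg
miR-221-3p and miR-222-3p share the seed GCUACAU, and let-7a-5p, let-7f-5p and let-7d-5p share the seed GAGGUAG. The letters of the assembled regions themselves are not shown, since the genome build of the files, hg19, was not used here.

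The libraries held very different numbers of these transcripts. There were 12101 in the PDL 15 library, 7310 in PDL 55, 1567 in control siRNA, 11153 in AUF1 siRNA and 11018 in the library labelled HuR siRNA. Members made up 63.3%, 52%, 22.1%, 62.5% and 64.2% of all assembled rows in the same order. The control siRNA library thus stood apart from the other PDL 15 libraries, and from PDL 55 as well. Depth differed in the same direction. One FPKM corresponded to a median read coverage of 1.26 per base in PDL 15, 1.29 in PDL 55, 1.25 in AUF1 siRNA and 1.14 in the library labelled HuR siRNA, but to 0.300 in control siRNA.

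The level at which transcripts were assembled moved with that coverage. The median member had an FPKM of 2.14 in PDL 15, 2.24 in PDL 55, 2.12 in AUF1 siRNA and 2.57 in the library labelled HuR siRNA, against 10.7 in control siRNA. In coverage per base the median member was alike in the 5 libraries, at 2.70, 2.90, 3.22, 2.65 and 2.94 in the order PDL 15, PDL 55, control, AUF1 and HuR siRNA. Of the control library's members 84.9% had an FPKM of at least 5, against 10.2% to 17.1% in the other 4. With the minimum set at 5 FPKM the counts came to 1238, 955, 1330, 1169 and 1889, so that the control library then held more members than PDL 15, PDL 55 or AUF1 siRNA. Each number of members is therefore given with its library's coverage in mind, and the part of depth in the differences was not tested.

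The thresholds cut through a continuous range of values. Among transcripts without an annotated gene, the highest FPKM left out for its level was 0.999845 in PDL 15 and 0.993224 in control siRNA, and the lowest kept was 1.00088 and 1.01832. The longest transcript left out for its length had 199 nt in every library and the shortest kept had 200 nt. The length minimum removed 618 of 2313 transcripts without a gene in control siRNA and 206 to 341 in each of the other 4 libraries. The FPKM minimum removed 104 in control siRNA and 651 to 1241 elsewhere, and the status removed 24 to 55.

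Most of the transcripts were short and in 1 piece. Their median length was 633 nt in PDL 15, 574 nt in PDL 55, 417 nt in control siRNA, 658 nt in AUF1 siRNA and 617 nt in the library labelled HuR siRNA. The share that was spliced, taken as a span at least 20 bases longer than the transcript, was 1.5%, 2.86%, 5.87%, 1.96% and 2.23% in the same order. Assembled transcripts that did share a gene with Ensembl had medians of 2406.5 to 2652.5 nt and were spliced in 97.5% to 99.4% of cases, under the same minimums. Ensembl transcripts lay between, at medians of 1119 to 1342 nt, with 93.2% to 94% spliced. Transcripts without a gene were thus shorter than both kinds in each library, and their quartiles in PDL 15 were 419 and 856 nt.

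Among rows of at least 200 nt these transcripts carried a similar share of the signal in the 5 libraries. The summed product of FPKM and length, an estimate of fragments, was 5.84% of that of all rows of at least 200 nt in PDL 15, 6.28% in PDL 55, 5.33% in control siRNA, 6.36% in AUF1 siRNA and 6.25% in the library labelled HuR siRNA. Over all rows, shorter ones included, the share was 5.57%, 5.73%, 1.32%, 5.94% and 5.73% in the same order, lowest in control siRNA. In the control library that share rested on 837 kb of assembled sequence, against 4912 kb in PDL 55 and 8724 kb in PDL 15. The 95% bounds that Cufflinks gave for a member extended a median of 40% to 47.1% of its FPKM to each side, and these bounds cover counting error only.

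Few loci were found in every library. Of the 23956 loci, 14564 (60.8%) had members in 1 library, 4870 in 2, 2539 in 3, 1670 in 4 and 313 (1.31%) in all 5. The loci found in 1 library numbered 4430 in PDL 15, 2143 in PDL 55, 540 in control siRNA, 3767 in AUF1 siRNA and 3684 in the library labelled HuR siRNA. Libraries that lacked such a locus had an assembled transcript of an Ensembl gene there in 20.7% to 25.7% of cases. They had an Ensembl row only in 39.1% to 42.3% and no row in 29.4% to 37.1%. A locus found in 1 library is therefore not shown to lack RNA in the others. In PDL 15 the median locus had a length-weighted mean FPKM of 1.80 where no other library had it, 2.80 where 4 libraries had it and 3.83 where all 5 had it. The same medians were 7.87, 10.5 and 18.4 in control siRNA. In PDL 55 they were 2.08 for loci in 1 library, 2.03 in 2, 2.09 in 3, 2.48 in 4 and 3.37 in all 5, so the level there rose with sharing only from the loci in 4 libraries on.

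The control siRNA library set the number in all 5. A further 1491 loci had members in the other 4 libraries but not in control siRNA, of 1804 loci found in those 4. In the control library 798 of the 1491 (53.5%) had no row of any kind, 383 had an Ensembl row only, 232 were covered by an assembled transcript of an Ensembl gene and 78 had a transcript that missed a minimum. Between pairs of libraries, 4719 loci were shared by PDL 15 and AUF1 siRNA, which is 41.8% of the first list and 45% of the second. PDL 15 and PDL 55 shared 3406, or 30.2% and 50.7%. PDL 15 and control siRNA shared 545, or 4.83% and 39.9%.

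Most loci lay inside or close to annotated genes. In all, 61.1% overlapped the span of an Ensembl transcript, introns included, 20.4% lay up to 5 kb from one, 14.4% lay beyond 5 and up to 50 kb, and 985 loci (4.11%) lay farther. The position differed with sharing. Of loci in 1 library 64.7% overlapped a span, against 36.1% of loci in all 5, and 16.6% against 45.7% lay up to 5 kb away. Libraries differed as well: of the loci found in 1 library only, 87% overlapped a span in control siRNA, 75.6% in AUF1 siRNA, 72.3% in the library labelled HuR siRNA, 56.1% in PDL 15 and 44.6% in PDL 55. The PDL 55 loci of this kind lay beyond 5 and up to 50 kb in 25.5% of cases, against 15.7% in PDL 15.

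Loci beside genes were mostly on the downstream side. Of the 4285 loci up to 5 kb from a transcript of known strand, 3294 (76.9%) lay downstream of its end. The share was 75.2% for loci in 1 library and 80.6% for loci in all 5. The nearest transcript belonged to a protein-coding gene for 71.7% of all loci. Examples in all 5 libraries were loci downstream of MAVS, an adaptor of antiviral RNA sensing, of FHL2, a LIM domain protein, and of CHST7, a carbohydrate sulfotransferase.

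Shared loci were also longer and more often held a spliced member. The longest member exceeded 1 kb at 8.07% of loci in 1 library, 20.2% in 2, 34.5% in 3, 49.7% in 4 and 76.4% in all 5. At least 1 member was spliced at 2.75% of loci in 1 library and at 15.7% of loci in all 5. A microRNA hairpin lay within 10 kb of 151 loci in 1 library (1.04%) and of 16 loci in all 5 (5.11%). For snoRNAs, which guide chemical modification of other RNAs, these shares were 0.748% and 1.60%. Length, splicing and sharing are not independent measures, since loci were joined by overlap. A locus in all 5 libraries holds at least 5 members, and 1 long or spliced member was enough to count it.

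Chromosomes differed in how many loci they held. Relative to merged Ensembl loci, chromosome 15 had 156 loci per 100 and chromosome 18 had 147, followed by chromosome 12 with 95.6. Among the autosomes and chromosome X, chromosome X had the fewest, 39.6 per 100, but the largest share of loci in all 5 libraries, 3%. Chromosome 11 had 54.0 per 100 and, among these chromosomes, the smallest such share, 0.309% or 3 of its 971 loci. The mitochondrial genome held 1 locus, in the library labelled HuR siRNA.

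The domain of members that was richest across the libraries surrounded the miR-221 and miR-222 hairpins on chromosome X, whose products are known to target the cell cycle inhibitor p27. Unspliced members within 10 kb of each other, grouped by a distance chosen after the data were seen, formed a domain at chrX:45602445-45705633 (hg19) of 103 kb with 181 members, the most of any domain present in all 5 libraries. No coding gene lay in it. Members covered 36.2 kb of it in PDL 15, 32.5 kb in PDL 55, 16.1 kb in control siRNA, 49.9 kb in AUF1 siRNA and 31.9 kb in the library labelled HuR siRNA. Their length-weighted mean FPKM was 7.33, 4.79, 19.6, 6.43 and 7.44 in the same order. The control library again had the least covered length and the highest level. In bulk RNA, fewer cells with a transcript and less of it per cell cannot be told apart.

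Within 25 kb of the miR-221 hairpin (chrX:45605585-45605694, minus strand) most of the covered sequence lay on its 5′ side. PDL 15 had 6 members over 14.5 kb with a mean FPKM of 14.5, besides 1 assembled transcript that shared the gene of a hairpin and so was no member. PDL 55 had 11 members over 20.7 kb with a mean FPKM of 5.92. The values were 19 members, 12.9 kb and 19.7 in control siRNA, 13 members, 22.9 kb and 9.50 in AUF1 siRNA, and 16 members, 18.7 kb and 9.64 in the library labelled HuR siRNA. PDL 55 was the lowest of the 5. A single unspliced transcript of 6137 nt in PDL 15 (FPKM 16.7, bounds 16.0 to 17.3) lay over nearly the same stretch as one of 7180 nt in PDL 55 (FPKM 7.55, bounds 7.17 to 7.92).

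That stretch, chrX:45614829-45623648, was 1 of the loci with the longest members in all 5 libraries, 8299 bases from the miR-222 hairpin. Its length-weighted mean FPKM was 17.6 in PDL 15, 7.71 in PDL 55, 15.2 in control siRNA, 12.2 in AUF1 siRNA and 11.3 in the library labelled HuR siRNA. Covered length was similar, from 6.37 kb in control siRNA to 8.75 kb in PDL 15. Its FPKM + 1 in PDL 55 relative to PDL 15 was lower by 0.83 on the log2 scale, after the median shift of Ensembl transcripts was removed. The hairpin rows themselves were listed at 0 to 11.4 FPKM for miR-221, and such a row is shorter than the sheared fragments, so no level is read from it.

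The miR-34a hairpin, whose product is known as a p53-induced microRNA, was also surrounded by members in every library. The locus spanned chr1:9209844-9227235 and overlapped the hairpin at chr1:9211727-9211836. It held 10 members over 8.64 kb in PDL 15, 8 over 7.44 kb in AUF1 siRNA and 9 over 8.23 kb in the library labelled HuR siRNA, with mean FPKM of 3.21, 4.15 and 5.64. In PDL 55 it held 1 spliced transcript of 272 nt that reached across nearly the whole locus, with an FPKM of 26.3 (bounds 23.0 to 29.6). In control siRNA it held 3 members over 0.73 kb with a mean FPKM of 70.5. The unspliced pieces that lined the locus in 3 libraries thus had no counterpart among the PDL 55 members there. The summed FPKM, 33.6 in PDL 15 and 26.3 in PDL 55, did not show this. Within 25 kb of the hairpin each library also had 1 assembled transcript that shared a gene with Ensembl and so was no member.

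Other microRNA genes had short but recurrent members. Over the miR-21 hairpin, at the 3′ end of VMP1, the locus chr17:57916483-57919752 had a mean FPKM of 5.56 in PDL 15, 2.94 in PDL 55, 14.0 in control siRNA, 3.96 in AUF1 siRNA and 3.78 in the library labelled HuR siRNA. A locus 1188 bases from the let-7a-1 hairpin, in the cluster with let-7f-1 and let-7d on chromosome 9, had 3.16, 3.49, 73.7, 2.62 and 3.09. Beside miR-424, which lies in a cluster with miR-503 on chromosome X, the values were 6.81, 2.48, 18.5, 4.12 and 6.09. Outside the control library the let-7a-1 values spanned a narrow range, whereas PDL 55 had the lowest mean at miR-21 and miR-424. At miR-21 the PDL 55 mean joined a piece before the hairpin (FPKM 1.09) and a piece after it (4.35). The second lay on a stretch that AUF1 siRNA and the library labelled HuR siRNA also covered, and was above their values. The rank of PDL 55 at miR-21 thus depended on which sequence was averaged. The control values rested on 2.21 kb at miR-21, 0.238 kb at let-7a-1 and 0.611 kb at miR-424.

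The miR-374b and miR-421 region of chromosome X formed another domain, chrX:73398012-73467211, with 136 members. Its covered length was 36.1 kb in PDL 15, 23.6 kb in PDL 55, 2.99 kb in control siRNA, 18.9 kb in AUF1 siRNA and 17.5 kb in the library labelled HuR siRNA. Mean FPKM was 4.61, 3.68, 17.2, 3.47 and 3.87. PDL 15 had the most covered length and, outside control siRNA, the highest mean.

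Around the miR-568 hairpin on chromosome 3 lay the longest member among loci in all 5 libraries. At chr3:114039657-114052584, PDL 55 had 1 unspliced transcript of 12881 nt with an FPKM of 5.61, where PDL 15 had 10 members over 11.5 kb with a mean of 3.54. Summing FPKM over pieces put PDL 15 far above PDL 55, at 40.1 against 5.61, while the length-weighted means put PDL 55 higher by 0.80 on the log2 scale. The adjoining locus over the hairpin, chr3:114033726-114036252, was 1 piece in both and gave 7.18 (bounds 6.51 to 7.84) and 13.9 (13.0 to 14.8). Its level was 34.2 in control siRNA, 2.76 in AUF1 siRNA and 4.75 in the library labelled HuR siRNA. PDL 55 was thus above 3 of the other 4 libraries at that locus.

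Imprinted clusters of small RNAs were a further recurrent group. On chromosome 14, in the region of MEG3 and RTL1 where microRNAs and SNORD112, SNORD113 and SNORD114 snoRNAs are made from the maternal chromosome, 4 loci in all 5 libraries lay near miR-493, miR-136 and miR-379. The largest, chr14:101349565-101402756, had 81 members and covered 18.1 kb in PDL 15, 11.8 kb in PDL 55, 5.30 kb in control siRNA, 18.2 kb in AUF1 siRNA and 4.81 kb in the library labelled HuR siRNA. Its mean FPKM was 5.73, 5.07, 23.1, 5.97 and 15.5. Here the library labelled HuR siRNA had few long pieces and a high mean, as had control siRNA. Summed over the whole domain, from chr14:101327472 to 101402756, the estimated fragments (FPKM times length in kb) were closer, at 99.8, 82.2, 142, 111 and 87.3.

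On chromosome 15, 588 bases upstream of SNORD116-1, a snoRNA of the Prader-Willi region that is expressed from the paternal copy, the locus chr15:25295026-25296036 was 1 unspliced member in each library. Its FPKM was 36.6 (bounds 33.9 to 39.2) in PDL 15, 46.0 (42.8 to 49.3) in PDL 55, 21.2 (16.5 to 25.9) in control siRNA, 47.7 (44.6 to 50.8) in AUF1 siRNA and 63.0 (59.1 to 66.9) in the library labelled HuR siRNA. The control library was the lowest of the 5 there. Its ratio to control was 1.26 in log2 for the library labelled HuR siRNA, among the 3 highest of the 177 loci compared by that rule, and 0.97 for AUF1 siRNA.

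The most abundant members lay beside ribosomal repeats. The locus with the highest level in its lowest library was chr16:33963856-33964171, 1255 bases from RNA5-8SP2, a pseudogene of the 5.8S ribosomal RNA. It had 6910 FPKM in PDL 15, 13318 in PDL 55, 14003 in control siRNA, 6373 in AUF1 siRNA and 8129 in the library labelled HuR siRNA. PDL 55 and control siRNA were close and above the other 3. The neighbouring locus over LINC00273, chr16:33952184-33963812, had 1141, 1485, 3773, 1612 and 1522, the control value being the sum of 3 overlapping transcripts. By length-weighted mean the control library had 1242 there, below PDL 55 and both knockdown libraries. A locus at chr2:132776686-133174509, which spans ANKRD30BL and another 5.8S pseudogene, had 792, 1231, 5734, 709 and 733. The control value came from a spliced member of 614 nt that reached across the whole span. Members of the other libraries lay between 133011930 and 133029410. A locus on chromosome 21, chr21:9563629-9827723, had 4729, 8125, 5494, 2199 and 2706. There the control value was the sum of 2 transcripts, whose length-weighted mean, 2208, was close to AUF1 siRNA. The larger value, 4536, came from a spliced member of 363 nt that started at 9563629. All other members there started at 9826682 or later. How much sequence these control members shared with the other libraries' members was not tested. Such sequence is present in near-identical copies, so reads could be split among copies, and the depletion of ribosomal RNA can differ between libraries. Neither was tested. The fifth of these loci, chr2:230045483-230045740 inside PID1, an adaptor of LRP1 signalling, had 233, 341, 711, 474 and 164.

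Many unspliced members lay close together in domains. There were 11048 domains, and the 846 with at least 10 members held 16747 of the 42202 unspliced members (39.7%). Around NR2F2, a nuclear receptor gene, members covered 23.7 kb in PDL 15, 4.25 kb in PDL 55, 1.26 kb in control siRNA, 21.7 kb in AUF1 siRNA and 10.2 kb in the library labelled HuR siRNA. Their mean FPKM was 2.55, 2.75, 30.6, 2.71 and 3.52 in the same order. Outside control siRNA the libraries there differed more in covered length than in mean level.

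The order of the libraries differed between domains. A domain on the downstream side of UACA, chr15:70880594-70946814, had 38.2 kb and 231 estimated fragments in PDL 55, against 15.4 kb and 46.7 in PDL 15, 45.2 fragments in control siRNA, 60.1 in AUF1 siRNA and 126 in the library labelled HuR siRNA. UACA encodes an ankyrin and coiled-coil protein linked to apoptosis, and its own summed FPKM was 327 in PDL 55 and 129 in PDL 15. A domain between NETO1 and FBXO15, chr18:71156153-71358267, had 42.5 kb in the library labelled HuR siRNA and 12.5 to 15.9 kb in PDL 15, PDL 55 and AUF1 siRNA. In a region between SOX5 transcripts, chr12:24250547-24364124, PDL 15 had 40.4 kb, the library labelled HuR siRNA 23.1 kb, PDL 55 17.8 kb and AUF1 siRNA 16.7 kb, while control siRNA had 0.79 kb.

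Loci in PDL 55 and PDL 15 could be compared at 3406 places. The ratio of FPKM + 1 was taken relative to the median of 12936 Ensembl transcripts, which was -0.26 in log2. With FPKM summed over a locus, 391 loci (11.5%) were at least 2-fold higher in PDL 55, where 6.07% of Ensembl transcripts were. At least 2-fold lower were 160 loci (4.7%), where 6% of Ensembl transcripts were. A locus entered only where it was assembled in both libraries, and Ensembl transcripts did not have to be assembled. Their shares are therefore not a like measure for these loci. Without the median shift the split turned, to 237 higher and 279 lower. With length-weighted means it was 283 higher and 85 lower, and with estimated fragments 154 and 99. With no FPKM minimum for members it was 289 higher and 252 lower. The median locus was 0.13 above the median Ensembl transcript by summed FPKM and 0.04 by fragments. A further 7871 loci were present in PDL 15 and not in PDL 55, and 3311 the other way round.

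Single loci in that comparison were named by a rule that asked for members in all 5 libraries and 95% bounds that did not overlap, which 113 loci met. The highest ratio, 4.38, was at chr19:43539121-43788264, over the PSG genes and CEACAM pseudogenes of chromosome 19. PSG genes encode pregnancy-specific glycoproteins. PDL 55 had 1 spliced transcript of 1027 nt there with an FPKM of 157 (bounds 152 to 161), while PDL 15 had 3 members summing to 8.06, control siRNA 1 at 4.64, AUF1 siRNA 11 summing to 31.5 and the library labelled HuR siRNA 11 summing to 39.4. Members of the other 4 libraries were unspliced pieces under the span of that transcript. The PSG genes are close copies of one another, so the assignment of reads among them is uncertain.

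A locus at chr15:70908970-70910774, in the domain downstream of UACA, was 1 member in each library. Its FPKM was 2.85 (bounds 2.27 to 3.43) in PDL 15 and 18.4 (17.1 to 19.6) in PDL 55, a centred log2 ratio of 2.59. The other values were 37.6 in control siRNA, 4.18 in AUF1 siRNA and 5.62 in the library labelled HuR siRNA, so PDL 55 was above 3 libraries and below control. At chr12:76653595-76686225, PDL 55 had 10 members summing to 118 and PDL 15 had 1 of 16.1, but the length-weighted means, 6.86 and 16.1, had the opposite order. Of the PDL 55 sum, 92.0 came from 1 piece of 215 nt at 76685893 to 76686107. The PDL 15 member, spliced and 237 nt long, ended within that piece, at 76686026. The other PDL 55 pieces, at 1.09 to 6.15, lay under its span, so the order depended on which sequence was averaged. The lowest ratio, -2.80, was at chr14:96505787-96553681 beside C14orf132, where PDL 15 had 23 members over 18.0 kb and PDL 55 had 3 over 1.78 kb. Their means were 2.91 and 2.67, so that locus too differed in covered length. Downstream of FHL2, at chr2:105971389-105972603, the mean was 5.30 in PDL 15 and 2.14 in PDL 55, with 26.4, 3.07 and 4.55 in control, AUF1 and HuR siRNA. The only PDL 55 piece (bounds 0.849 to 3.43) lay inside a PDL 15 piece of 2.83 (bounds 1.699 to 3.96), so their bounds overlapped. The PDL 15 mean also took in a higher piece, where PDL 55 had no member. These means thus covered partly different sequence. FHL2 itself had 90.9 and 96.8 FPKM in PDL 15 and PDL 55.

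Against the control siRNA library the knockdown libraries were lower at most shared loci by summed FPKM. AUF1 siRNA and control siRNA shared 578 loci, of which 400 (69.2%) were at least 2-fold lower and 11 (1.9%) higher, where 6.18% and 6.41% of 11397 Ensembl transcripts were. For the library labelled HuR siRNA, 398 of 639 shared loci (62.3%) were lower and 12 (1.88%) higher, where 6.27% and 7.63% of Ensembl transcripts were. Both comparisons use the same control library. That library compared with the untransfected PDL 15 library gave the reverse: 417 of 545 loci (76.5%) were higher and 10 (1.83%) lower, against 8.15% and 8.51% of Ensembl transcripts. By estimated fragments 194 loci (33.6%) were lower than control and 33 (5.71%) higher for AUF1 siRNA, and 219 (34.3%) lower and 36 (5.63%) higher for the library labelled HuR siRNA. With members of at least 500 nt, 94 of 219 shared loci were lower by summed FPKM for AUF1 siRNA and 77 of 243 for the library labelled HuR siRNA. A locus entered these comparisons only where it was assembled in control siRNA, in which the median member had an FPKM of 10.7. That median was 2.12 in AUF1 siRNA and 2.57 in the library labelled HuR siRNA. Ensembl transcripts did not have to be assembled, so their shares are not a like measure for these loci. The low coverage of the control library and the control siRNA itself cannot be told apart with 1 library.

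Set against the untransfected PDL 15 library, the knockdown libraries differed far less. AUF1 siRNA was at least 2-fold higher at 424 of 4719 loci (8.98%) and lower at 196 (4.15%), where Ensembl transcripts gave 6.07% and 6.44%. The library labelled HuR siRNA was higher at 577 of 4490 loci (12.9%) and lower at 150 (3.34%), where they gave 5.3% and 5.23%. Here too the loci had to be assembled in both libraries and the Ensembl transcripts did not, so these shares are not a like measure. Without the median shift AUF1 siRNA turned to 259 higher and 305 lower, and the library labelled HuR siRNA had 467 and 191. By estimated fragments these counts were 228 and 110 for AUF1 siRNA and 252 and 147 for the library labelled HuR siRNA. The targeted genes bear on the labels. HNRNPD had a summed FPKM of 65.9 in PDL 15, 37.8 in control siRNA and 9.90 in AUF1 siRNA, the lowest of the 5. ELAVL1 had 3.14, 1.69 and, in the library labelled HuR siRNA, 1.63, so it set that library apart from PDL 15 but not from control.

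Among the loci named for the knockdown comparisons, control siRNA was high at all of the lowest ratios. At chr1:162496994-162743774, which overlaps UHMK1, UAP1 and DDR2, control siRNA had 1 spliced member of 237 nt, joined across the whole span, with an FPKM of 319 (bounds 294 to 345) and the other 4 libraries had 2.11 to 8.65 summed. At chr17:78421668-78609805, over RPTOR and NPTX1, it had 249 in 1 spliced member of 200 nt across the span, and the others 2.91 to 8.60. At both loci the other libraries' members were pieces inside that span, mostly unspliced, so these ratios set different sequence side by side. At chr17:1608335-1609306, downstream of TLCD2 and 7885 bases from the miR-22 hairpin, it had 92.7 (bounds 58.8 to 127) over 0.229 kb, while PDL 15 had 6.21, PDL 55 5.72, AUF1 siRNA 3.10 and the library labelled HuR siRNA 2.39 over 0.921 to 0.962 kb. At chr7:128594076-128594576 it had 258, against 5.08 in AUF1 siRNA and 18.0 to 34.1 elsewhere.

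The highest ratios were less uniform. For both knockdown libraries the highest by summed FPKM was the locus over the PSG genes, at 2.36 for AUF1 siRNA and 2.57 for the library labelled HuR siRNA, but by length-weighted means the same ratios were -0.73 and -0.64. The control member there, at 43706952 to 43707908, overlapped no member of either knockdown library. Only the spliced PDL 55 transcript joined them into 1 locus, so both kinds of ratio set different sequence side by side. Downstream of MAVS, chr20:3850365-3851443 was 1 member in each library, with 29 (bounds 26.6 to 31.4) in PDL 15, 24.6 in PDL 55, 11.4 (8.12 to 14.7) in control siRNA, 32.5 (30.2 to 34.8) in AUF1 siRNA and 22.4 in the library labelled HuR siRNA. Control siRNA was lowest there, and AUF1 siRNA lay 0.38 in log2 above PDL 15. MAVS itself had 3.33 to 7.01 FPKM. Upstream of ZNF496, a zinc finger gene, chr1:247496418-247522119 had summed values of 33.6, 14.3, 10.3, 36.8 and 17.1, but by length-weighted means AUF1 siRNA (7.76) was below control (10.3). Of the AUF1 siRNA sum, 35.6 came from 1 spliced member of 211 nt that reached across most of the locus. The control value was 1 unspliced piece of 337 nt inside that reach, and how much sequence they shared was not tested. At chr14:50053300-50329565, over NEMF and its neighbours, the summed values were 316, 277, 47.9, 86.0 and 239. In PDL 15 and PDL 55 they came from spliced members of 284 to 297 nt that reached across nearly the whole span. In the library labelled HuR siRNA, 220 came from 1 unspliced piece of 240 nt, where control siRNA had no member. The values at this locus thus set different sequence side by side. The length-weighted means there were 104, 92.7, 21.0, 6.79 and 22.3, so by means the library labelled HuR siRNA was close to control, at a log2 ratio of -0.19.

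The strongest loci found in 1 library only were spliced and overlapped expressed genes. In PDL 15 they overlapped LDHA, lactate dehydrogenase A (FPKM 358), and LRP1, an endocytic receptor (210). In PDL 55 they overlapped MSN, moesin (201), and ZEB1, a transcription factor (135). In control siRNA they overlapped HSPB6, a small heat shock protein (190 over 2 members), and CD248, endosialin, with an antisense transcript (151). In AUF1 siRNA they overlapped SLC20A2, a phosphate transporter (105), and ENG, endoglin (104), and in the library labelled HuR siRNA HSP90AB1, a heat shock protein (231), and RAI14 (67.8). All 10 were spliced and overlapped an annotated span. Several host genes were expressed in all 5 libraries: LDHA had a summed FPKM of 123 to 220, MSN 37.7 to 90.1 and ZEB1 118 to 237. ENG was listed at 0 in PDL 55 and control siRNA and had 14.3 in PDL 15, 73.8 in AUF1 siRNA and 97.0 in the library labelled HuR siRNA.

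In the 3 comparisons without the control library, loci that overlapped genes followed their host more closely than loci beside genes. For PDL 55 against PDL 15, the log2 ratio of a locus and that of the protein-coding gene it overlapped had a Spearman correlation of 0.32 over 957 loci in 647 genes, and of 0.06 over 745 loci up to 5 kb away. For AUF1 siRNA against PDL 15 the values were 0.37 (1660 loci) and 0.14 (850), and for the library labelled HuR siRNA 0.30 (1563) and 0.06 (806). With the control library the order was not the same throughout. AUF1 siRNA against control gave 0.07 over 203 overlapping loci and 0.15 over the loci up to 5 kb away, beside 111 genes. The library labelled HuR siRNA against control gave 0.12 (237) and -0.10 (132), and control siRNA against PDL 15 gave 0.18 (187) and -0.05 (114). Beyond 5 and up to 50 kb these 3 comparisons gave 0.21, 0.30 and 0.38, over 21 to 25 loci. These are descriptions over loci, which share libraries and often a gene. Overlapping loci and their host genes were both at least 2-fold higher in PDL 55 at 6 loci, both lower at 16 and opposite at 1. Up to 5 kb away, 4 loci were lower with their gene, none was higher with it and 6 were opposite.

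Markers of the cell type were checked once. COL1A2 had 269 to 911 summed FPKM, THY1 54.6 to 173 and PDGFRB 9.71 to 22.3, whereas VIM was listed at 0 in every library and COL1A1 had no usable estimate in the library labelled HuR siRNA (573 to 6705 elsewhere). COL3A1 ranged from 32.6 to 249. The epithelial markers EPCAM, KRT8 and CDH1 did not exceed 1.004, CDH5, an endothelial marker, did not exceed 0.028, and of the blood markers PTPRC reached 2.10 and CD74 1.27. PECAM1 was not analysed here.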

How the data were processed

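Total RNA from 5 WI-38 libraries was analysed, 1 per group, so p-values were not computed. Per the submitters' processing notes, TopHat2 (2.0.6), Cufflinks (2.0.2) and Cuffdiff were used with the hg19 genome; the annotation release is not given in the sources used here. The authors deposited, per library, each transcript's FPKM with its 95% bounds, its read coverage (signal), its length and its locus. FPKM holds no read counts, and single reads were not recovered, so depth is known only as coverage per FPKM.

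Members were taken by the rule stated in the report, and loci joined by overlap of at least 1 base. Distance was measured to the nearest of 160485 Ensembl transcripts in the files, of which 138911 were given a symbol, type and strand from GENCODE 29 by identifier only; no coordinates were converted between builds. Ratios are log2(FPKM + 1), relative to the median Ensembl transcript of at least 200 nt, FPKM of at least 1 and status OK in both libraries, and a pseudocount of 1 understates differences of low values. Called means at least 2-fold apart. A list of loci was named by rule: of loci in all 5 libraries, the 5 highest, the 5 with the longest member, and the 3 highest and 3 lowest ratios per comparison (an FPKM of at least 5 in 1 library, bounds apart); and for each library the 2 highest loci found in it only, with a member of at least 500 nt. The microRNA loci, the SNORD116-1 and chromosome 14 loci beyond that rule, and the domains were chosen after their values were seen; 1 domain is not reported here. Members and lists were chosen with earlier results of these data known. The joining and distance steps were tested on simulated data. Alternatives covered the FPKM, length and status minimums, the joining, the pseudocount, the centring, fragment mass and the reference library; length-weighted mean FPKM was added after seeing the data. Python 3 with numpy, pandas and scipy was used.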

Additional observations from a re-analysis of the deposited data

How the results depend on the processing

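Of 89 recomputed values for 14 results, 47 stayed within 1.5 times of the reported count or within the 95% exact binomial interval of the reported share, and 42 moved. With an FPKM minimum of 5 there were 1238 members in PDL 15, 955 in PDL 55, 1169 in AUF1 siRNA and 1889 in the library labelled HuR siRNA. These formed 4710 loci, 64 in all 5 libraries and 3757 in 1, of which 42.2% overlapped an Ensembl span and 33.5% lay up to 5 kb away; with no minimum the shares were 64.4% and 18.7%. With a length minimum of 500 nt there were 7834, 4217, 657 and 6783 members in PDL 15, PDL 55, control siRNA and the library labelled HuR siRNA, 91 loci in all 5, and shares of 74.8% and 14.0%. Joining only at an overlap of 50% of both spans gave 105 loci in all 5 and shares of 56.3% and 23.4%. Leaving out the control siRNA library gave 1810 loci in all 4 others. Against Ensembl rows with an FPKM of at least 1 the shares were 56.8% and 18.8%.

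Loci at least 2-fold apart numbered 551 of 3406 (16.2%) for PDL 55 against PDL 15 and 411 of 578 (71.1%) for AUF1 siRNA against control siRNA. They numbered 410 of 639 (64.2%) for HuR siRNA against control siRNA and 427 of 545 (78.3%) for control siRNA against PDL 15. In the same order they came to 33, 121, 182 and 135 with the FPKM minimum of 5 (14.9%, 64.7%, 64.1% and 72.2% of the loci compared). With the length minimum they were 133, 105, 84 and 112 (6.68%, 47.9%, 34.6% and 53.6%). Under the stricter joining they were 250, 162, 193 and 163 (8.43%, 60%, 53.6% and 68.2%). By fragment mass they were 253, 227, 255 and 271 (7.43%, 39.3%, 39.9% and 49.7%). The stricter minimums and joining leave fewer loci to compare. With PDL 15 as the reference the counts were 620 of 4719 loci (13.1%) for AUF1 siRNA and 727 of 4490 (16.2%) for the library labelled HuR siRNA. The counts were thus larger than with control siRNA as the reference, and the shares smaller. The cause of the other shifts was not tested. No paired analysis was possible because each group had 1 library. Coverage per FPKM limits detection most in the control siRNA library, where a locus that was not assembled is not shown to lack RNA.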

Other observations

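Members also lay at IRS1, SOCS5 and FGF2. At IRS1, the insulin receptor substrate, the locus chr2:227661868-227677745 had 27 members and a length-weighted mean FPKM of 3.76 in PDL 15, 2.17 in PDL 55, 53.4 in control siRNA, 2.90 in AUF1 siRNA and 3.96 in the library labelled HuR siRNA, while IRS1 itself had 21.0, 8.78, 14.2, 21.8 and 17.5. Both were lowest in PDL 55. Of the 27 members 4 were spliced, and the control value was 1 spliced transcript of 310 nt that reached across the locus. In the span of SOCS5, a suppressor of cytokine signalling, the locus chr2:46957877-46963916 had 2.43, 2.34, 4.48, 1.96 and 2.62 in the same order. At FGF2, a fibroblast growth factor, members of the domain chr4:123748732-123810004 covered 19.2 kb in PDL 15, 20.1 kb in PDL 55, 5.58 kb in control siRNA, 29.1 kb in AUF1 siRNA and 20.6 kb in the library labelled HuR siRNA. Their mean FPKM was 2.15, 1.99, 7.90, 2.75 and 3.09.

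These loci were chosen after their values were seen. Downstream of CHST7, chrX:46458597-46462978 was 1 transcript of 4379 nt in PDL 55 (FPKM 5.98) and 3 members in PDL 15 with a mean of 3.72.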
